A study of Mus musculus with 33 samples.

Results

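Retinal ganglion cells are the output neurons of the eye, and their axons form the optic nerve. The levels of 10 genes used to recognise these cells were followed in mouse retinal progenitor cells during culture towards cones or rods. The 10 genes were chosen by name as retinal ganglion cell genes, and all of them were found by symbol among the 47729 genes of the count tables. They are the transcription factor genes Pou4f1, Pou4f2 and Isl1, the RNA-binding protein genes Rbpms and Elavl4, the neurofilament genes Nefl and Nefm, the axon growth genes Stmn2 and Gap43, and the synuclein gene Sncg. All 10 passed the filter on low counts, which kept 18150 genes. Of these, 9 were highest by group mean in untreated or cone primed cells and far lower at day 35 in both conditions. The exception was Rbpms, which ended above its starting level in rod cultures.

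The cells came from the retina of C57BL/6J mice at embryonic day 14. At day 0 there were 3 groups: untreated cells, cone primed cells, whose treatment label names COCO protein, and rod primed cells, whose treatment label names taurine and retinoic acid. At days 5, 12, 21 and 35 there were cone induced cells (COCO protein) and rod induced cells (taurine and retinoic acid), with 3 libraries in each of the 11 groups. COCO is a secreted protein that blocks BMP, Wnt and TGF-beta ligands, taurine is an amino acid-like molecule abundant in the retina, and retinoic acid is the active form of vitamin A. All groups shared the strain, the tissue and the age of the donor embryos, and untreated cells were analysed at day 0 only, so that time in culture and the agent cannot be told apart within a condition. The labels do not describe the culture protocol, how many embryos were pooled, or whether replicates were separate cultures. The p-values therefore measure the spread between these libraries, which may be technical.

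In the embryonic retina, ganglion cells are the first neurons that progenitors produce. The factor Atoh7 makes progenitors competent for this fate, and Pou4f2 and Isl1 then switch on the ganglion cell programme, including Pou4f1 and genes for axon growth and for the neurofilaments that fill long axons. Several of the genes are not restricted to ganglion cells. Isl1 also marks cholinergic amacrine and ON bipolar cells. Gap43, Stmn2, Elavl4 and the neurofilament genes are shared with other young neurons, and Rbpms is also expressed in smooth muscle. In bulk RNA, fewer cells of a type and less RNA per cell cannot be told apart.

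The libraries held between 7511837 and 19166442 counts in genes (median 12985662), so that 3 counts, the upper limit that a count of 0 allows, correspond to between 0.174 and 0.407 CPM. CPM here is the count over the TMM-scaled library size. Markers of the labelled cell type were present at day 0: the summed level of 12 retinal progenitor genes was 1945 to 2366 CPM in untreated and cone primed libraries and 2835 to 3378 CPM in rod primed libraries, with none of the 12 at 0. Some libraries stood apart from the other two of their group in the genes described here. Cone primed replicate 2 and rod primed replicate 3 were the highest of their groups for all 10 genes, and untreated replicate 3 was the highest for 9. At day 12, rod replicate 2 was the highest for 9, all but Rbpms. Cone primed replicate 2, rod primed replicate 3 and untreated replicate 3 were at the same time the lowest of their groups in the summed level of 7 photoreceptor genes. Their sums were 1025, 873.5 and 1234 CPM. By contrast, rod replicate 2 at day 12 was the highest of its group in that sum, at 947.5 CPM against 111.7 and 199.1 CPM. The part of these differences in the results was not tested.

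The start sites of 5 of the 10 genes (Pou4f1, Pou4f2, Isl1, Sncg and Elavl4) had an entry in the RefSeq promoter table for GRCm38.p6. The 250 bases before the start of the 3 transcription factor genes are printed because these genes sit at the top of the ganglion cell programme, and an internal start of Elavl4 is printed because it holds all 4 motifs searched, as does a second window that overlaps it. Motifs are in capitals, each read on both strands: the E-boxes CAGATG and CAGCTG bound by basic helix-loop-helix factors such as Atoh7, the homeodomain core TAATTA, and the nuclear receptor half-site AGGTCA. All sequences run 5′ to 3′ on the gene's strand, the minus strand in each case.
Pou4f1, chr14:104468000-104468249: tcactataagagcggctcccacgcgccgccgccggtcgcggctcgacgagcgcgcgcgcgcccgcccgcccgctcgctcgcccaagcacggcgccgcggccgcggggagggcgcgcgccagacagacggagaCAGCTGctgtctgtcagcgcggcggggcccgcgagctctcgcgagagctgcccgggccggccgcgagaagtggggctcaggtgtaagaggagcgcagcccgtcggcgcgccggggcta
Pou4f2, chr8:78436648-78436897: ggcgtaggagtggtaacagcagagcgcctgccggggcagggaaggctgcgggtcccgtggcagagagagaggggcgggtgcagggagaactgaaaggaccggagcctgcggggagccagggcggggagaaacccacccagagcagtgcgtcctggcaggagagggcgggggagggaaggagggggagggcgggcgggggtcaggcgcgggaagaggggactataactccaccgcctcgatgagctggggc
Isl1, chr13:116309689-116309938: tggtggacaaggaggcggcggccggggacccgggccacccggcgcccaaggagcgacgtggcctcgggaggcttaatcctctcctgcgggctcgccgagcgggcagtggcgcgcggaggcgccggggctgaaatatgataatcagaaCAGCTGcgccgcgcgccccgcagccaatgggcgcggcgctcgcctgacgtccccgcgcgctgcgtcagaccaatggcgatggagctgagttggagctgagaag
Elavl4, chr4:110287528-110287777: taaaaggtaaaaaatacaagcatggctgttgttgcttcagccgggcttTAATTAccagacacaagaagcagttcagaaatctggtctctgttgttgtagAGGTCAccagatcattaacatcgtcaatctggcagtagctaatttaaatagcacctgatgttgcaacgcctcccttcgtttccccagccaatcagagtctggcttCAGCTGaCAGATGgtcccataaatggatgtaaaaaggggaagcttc
CAGCTG stood 118 to 113 bases before the start of Pou4f1 and 103 to 98 bases before the start of Isl1. The window of Pou4f2 held none of the 4 motifs. The window of Sncg, not printed, held CAGATG read on the other strand, 9 to 4 bases before the start. The printed Elavl4 window, chosen for its matches, held TAATTA (202 to 197 bases before the start), AGGTCA (151 to 146), CAGCTG (46 to 41) and CAGATG (39 to 34). The Elavl4 window at the outermost start, chr4:110351912-110352161, held none of the 4 motifs. Another internal window, chr4:110286835-110287084, held CAGATG alone. Of 32851 promoter windows of the same length, 13% held CAGCTG, 14.4% CAGATG, 4.84% TAATTA and 14% AGGTCA. GC bases made up 78% of the Pou4f1 window, 70.8% of the Pou4f2 window, 71.2% of the Isl1 window and 44% of the Elavl4 window. These matches describe the letters only.

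Before any induction the 3 transcription factor genes were well above the limit of detection. Pou4f1 (ENSMUSG00000048349, chr14:104461676-104467999), a POU-domain factor of ganglion cell identity, stood at 52.1, 33.2 and 74.2 CPM in untreated replicates 1, 2 and 3, at 33.6, 89.7 and 37.3 CPM in cone primed cells and at 16.3, 6.15 and 19.8 CPM in rod primed cells. The rod primed libraries lay below all 6 others. Its close relative Pou4f2 (ENSMUSG00000031688, chr8:78433010-78436645), needed for ganglion cell differentiation and survival, stood at 8.06, 8.34 and 14.2 CPM in untreated, 5.92, 23.6 and 6.39 CPM in cone primed and 2.85, 2.72 and 9.07 CPM in rod primed cells, where the groups overlapped. Isl1 (ENSMUSG00000042258, chr13:116298281-116309689), a LIM-homeodomain factor, stood at 32.0, 39.4 and 73.8 CPM in untreated, 28.6, 89.4 and 39.9 CPM in cone primed and 16.3, 16.5 and 31.9 CPM in rod primed cells. Rod primed Isl1 lay just below the untreated range and overlapped the cone primed range.

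The comparison of cone primed with untreated cells asked whether COCO priming alone moved these genes. None of the 10 was called, that is, had a Benjamini-Hochberg adjusted p under 0.05 in edgeR's quasi-likelihood test over all genes, and 0 had an unadjusted p under 0.05. The background was 0% of the 18150 genes called, with 200 genes at an unadjusted p under 0.05, and DESeq2 and voom with quality weights also called 0 of the 10. The median log2 fold change of the 10 genes was 0.13, against 0 over all genes. It turned to -0.41 without cone primed replicate 2 and rose to 0.42 without untreated replicate 3. The standard errors of the 10 genes ran from 0.30 for Gap43 to 0.68 for Sncg.

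Rod priming went with lower Pou4f1. Compared with untreated cells, Pou4f1 was lower in rod primed cells by 3.78-fold (log2 fold change -1.92 ± 0.48 SE, edgeR quasi-likelihood adjusted p = 0.0101), and it was the only 1 of the 10 genes called, against 3.56% of all genes called lower. All 10 log2 fold changes were below 0, with a median of -1.01 against 0 over all genes, and 4 had an unadjusted p under 0.05 (Pou4f1, Stmn2, Nefm and Nefl). The call of Pou4f1 was lost without untreated replicate 3 (adjusted p = 0.0769) and without rod primed replicate 2 (adjusted p = 0.0649), with log2 fold changes of -1.56 and -1.55. Voom with quality weights called 8 of the 10 genes in this comparison, and the fit of the compared libraries only called 3. Without rod primed replicate 3, the count of edgeR calls was 2. The shares of all genes called in these other fits are not given here, so these counts have no background beside them.

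Against cone primed cells, which shares its rod primed libraries with the comparison just given, Pou4f1 was 3.82-fold higher in cone than in rod primed cells (log2 fold change 1.93 ± 0.48 SE, edgeR adjusted p = 0.0124). It was the only 1 of the 10 called, against 2.5% of all genes called higher in cone. All 10 genes leaned to cone, with a median log2 fold change of 1.16 against -0.01 over all genes, and 8 had an unadjusted p under 0.05. Without cone primed replicate 2 the median was 0.57, 9 of the 10 leaned to cone, Sncg turned to -0.31 and Gap43 stood at 0.08. Stmn2 was next, at 1.06 ± 0.33 SE (edgeR adjusted p = 0.0505), and its 3 cone primed libraries lay above its 3 rod primed libraries. Without cone primed replicate 2, the library highest in all 10 genes, the Pou4f1 difference was 1.33 (edgeR adjusted p = 0.11), and without rod primed replicate 2 it was 1.57 (adjusted p = 0.0791). Voom with quality weights called 7 of the 10 and DESeq2 called 2, and edgeR called 2 without rod primed replicate 3. For these fits too the share of all genes called is not given. Beside this, 4 of 12 retinal progenitor genes were called lower and 1 higher in cone primed than in rod primed cells, against 4.77% and 2.5% of all genes, among them Ccnd1, the cell cycle gene encoding cyclin D1 (log2 fold change -2.13 ± 0.24 SE, edgeR adjusted p = 9.49e-07). The part of these genes in the Pou4f1 result was not tested.

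**Figure D1:**
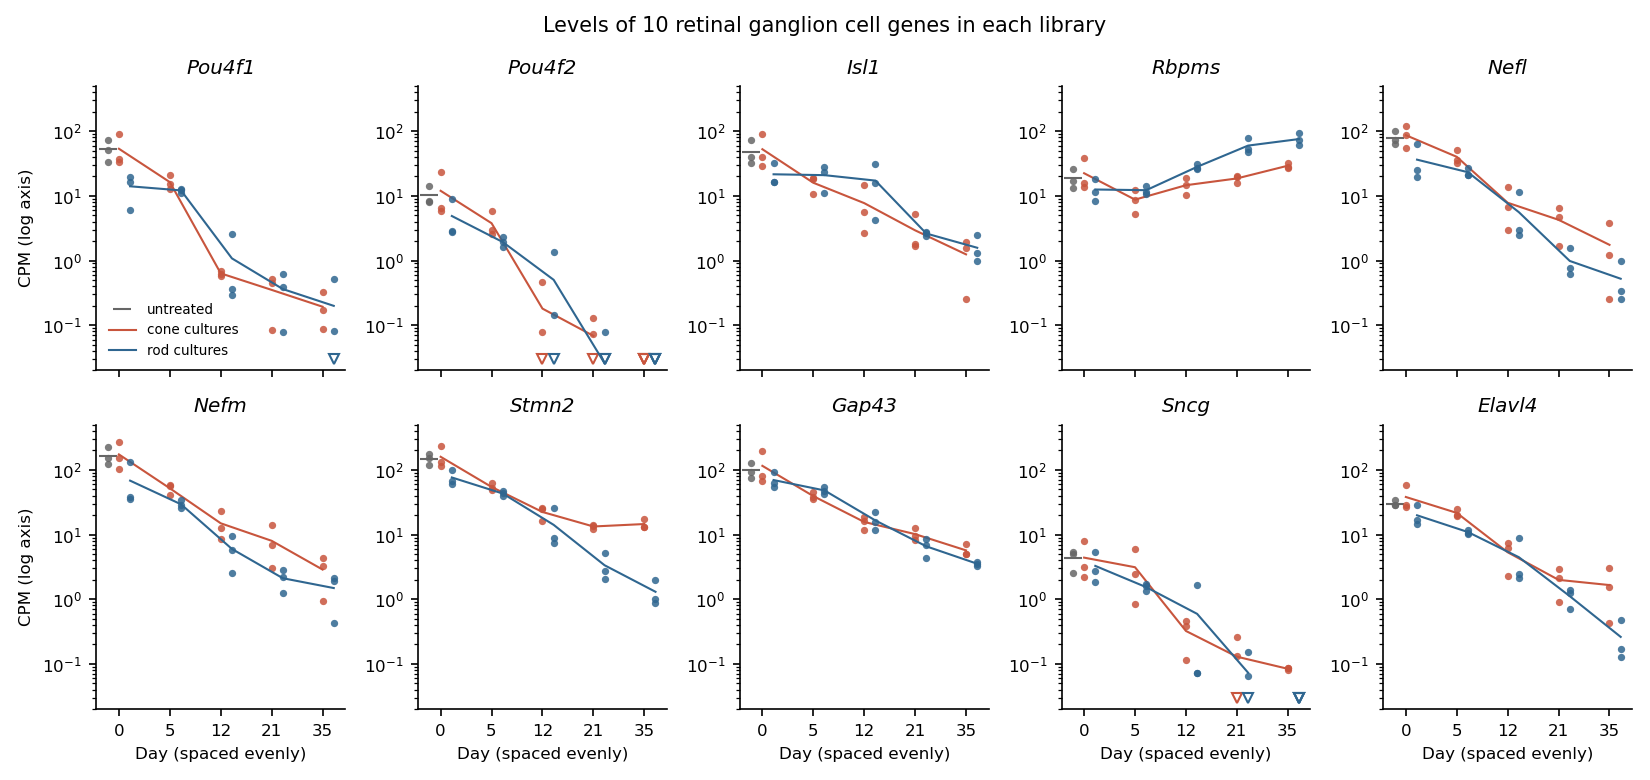
Levels of the 10 genes in CPM (log axis) by day, with days evenly spaced. Each point is 1 library, lines join the group means, grey bars are the means of untreated cells, and open triangles at the foot mark libraries with 0 counts. Pou4f2 is at 0 in all 6 libraries of day 35, Rbpms rises in rod cultures to 75.6 CPM, and Stmn2 levels off at 14.5 CPM in cone cultures.

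Pou4f1 fell to a few counts per library. In cone cultures Pou4f1 went from the primed levels given before to 20.9, 13.0 and 15.1 CPM at day 5, then to 0.583, 0.621 and 0.696 CPM at day 12 and 0.171, 0.0859 and 0.323 CPM at day 35, the last resting on 7 counts in all. The 3 libraries of day 12 all lay far below those of day 5. Over the whole course Pou4f1 was 261-fold lower in the fit (log2 fold change -8.03 ± 0.75 SE, edgeR adjusted p = 8.27e-10). The rod libraries stood at 12.8, 12.4 and 11.2 CPM at day 5, 0.357, 2.59 and 0.288 CPM at day 12, and 0, 0.0809 and 0.517 CPM at day 35. Between day 0 and day 35 the rod log2 fold change was -5.91 ± 0.74 SE (edgeR adjusted p = 1.83e-07), from a lower start.

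Pou4f2 could no longer be detected at day 35. Summed over the 3 cone libraries it had 180 counts at day 5 and then 7, 2 and 0 counts on the later days. The rod libraries had 72 counts at day 5 and then 22, 1 and 0 counts, and 20 of the 22 counts of day 12 came from replicate 2. Against a limit of 3 counts per library, the level at day 35 was at least 47.5-fold lower than in primed cells in cone cultures and at least 21.2-fold lower in rod cultures, with edgeR adjusted p of 1.61e-06 and 2.03e-05.

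Isl1 fell as well and stayed detected to day 35. In cone cultures it stood at 18.4, 10.8 and 18.6 CPM at day 5, 5.71, 14.8 and 2.71 CPM at day 12, 1.71, 5.31 and 1.78 CPM at day 21, and 0.256, 1.55 and 1.94 CPM at day 35. The rod libraries stood at 23.6, 11.2 and 28.0 CPM at day 5, 4.28, 31.5 and 15.9 CPM at day 12, 2.39, 2.78 and 2.67 CPM at day 21, and 2.46, 1.29 and 0.968 CPM at day 35. The rod libraries of day 12 were spread widely, with the highest above the highest rod library of day 5. From day 0 to day 35 the log2 fold change was -5.39 ± 0.75 SE in cone and -3.80 ± 0.72 SE in rod cultures (edgeR adjusted p = 7.39e-07 and 6.17e-05). The F test for a gap between cone and rod cells that moves with day gave an edgeR adjusted p of 0.264 for Isl1, so a difference in course between the conditions was not called.

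The neurofilament genes Nefl (ENSMUSG00000022055, chr14:68083863-68089095) and Nefm (ENSMUSG00000022054, chr14:68082590-68124846) encode the light and medium subunits of the axonal filaments. They lie on opposite strands and share 1108 exonic bases, 32.8% of those of Nefl and 19.2% of those of Nefm. How strand was treated in counting is not given in the sources used here, so reads in the shared part cannot be assigned to either gene with certainty, and both genes are reported as uncertain to that extent. Nefl stood at 54.1, 120 and 86.4 CPM in cone primed and 25.1, 19.4 and 64.4 CPM in rod primed cells. At day 35 it stood at 0.256, 3.78 and 1.21 CPM in cone and 0.340, 0.970 and 0.258 CPM in rod cultures. All 6 later libraries lay below all 6 earlier ones. Its log2 fold change from day 0 to day 35 was -5.63 ± 0.69 SE in cone and -6.14 ± 0.79 SE in rod cultures (edgeR adjusted p = 9.3e-08 and 2.64e-07).

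Nefm followed a like course. It stood at 104, 266 and 150 CPM in cone primed cells, 57.3, 41.0 and 57.5 CPM at day 5, 12.8, 23.3 and 8.66 CPM at day 12, and 0.939, 4.38 and 3.31 CPM at day 35. Rod cultures went from 35.7, 38.5 and 130 CPM to 28.2, 25.9 and 34.0 CPM at day 5, 2.57, 9.62 and 5.77 CPM at day 12, and 0.425, 2.10 and 1.94 CPM at day 35. The group means fell at each step in both conditions. Its log2 fold change from day 0 to day 35 was -5.91 ± 0.64 SE in cone and -5.48 ± 0.67 SE in rod cultures (edgeR adjusted p = 1.18e-08 and 1.05e-07).

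Stmn2 (ENSMUSG00000027500, chr3:8509360-8561606) encodes stathmin-2, a regulator of microtubules in growing and regenerating axons. It stood at 116, 231 and 131 CPM in cone primed and 67.3, 60.7 and 101 CPM in rod primed cells. In cone cultures it fell to 25.1, 25.7 and 16.2 CPM at day 12 and then stood at 13.9, 13.8 and 12.3 CPM at day 21 and 13.0, 17.4 and 13.2 CPM at day 35. In rod cultures it stood at 7.35, 26.1 and 8.87 CPM at day 12, 5.25, 2.78 and 2.02 CPM at day 21 and 1.02, 0.889 and 2.00 CPM at day 35. The cone libraries of days 21 and 35 overlapped each other, and no rod library of these days reached them. Stmn2 at day 35 was 11.0-fold below its day 0 level in cone cultures (log2 fold change -3.46 ± 0.37 SE) and 56.5-fold below it in rod cultures (-5.82 ± 0.46 SE), with edgeR adjusted p of 8.19e-09 and 5.8e-11.

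Gap43 (ENSMUSG00000047261, chr16:42248442-42340651), which encodes a protein of the growth cone membrane, fell by about the same fold in both conditions. It stood at 68.1, 199 and 79.4 CPM in cone primed and 53.7, 63.4 and 91.9 CPM in rod primed cells, and at 5.04, 7.04 and 5.00 CPM in cone and 3.82, 3.23 and 3.55 CPM in rod cultures at day 35. The cone libraries of day 35 lay above the rod libraries, but the difference was not called (log2 fold change 0.68 ± 0.38 SE, edgeR adjusted p = 0.272). Its day 35 level was below that of day 0 by 20.3-fold in cone and by 19.7-fold in rod cultures (log2 fold changes -4.35 ± 0.36 SE and -4.30 ± 0.37 SE, edgeR adjusted p = 7.93e-11 and 2.7e-10).

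Sncg (ENSMUSG00000023064, chr14:34370274-34374789) encodes gamma-synuclein, a small protein abundant in ganglion cell bodies and axons, and had the lowest counts of the 10 genes with 668 over the 33 libraries. It stood at 3.15, 7.84 and 2.20 CPM in cone primed and 2.71, 1.81 and 5.30 CPM in rod primed cells. At day 12 it stood at 0.117, 0.388 and 0.464 CPM in cone and 0.0714, 1.64 and 0.0721 CPM in rod cultures, where replicate 2 held nearly all counts. At day 35 each cone library had 1 count, and no rod library had any. The ratio of cone day 35 to cone primed cells was 0.0175, with an exact 95% counting interval of 0.00357 to 0.0522, and in rod cultures the level was at least 14.2-fold lower (edgeR adjusted p = 6.77e-05 and 3.46e-05). Both conditions were at or under the limit at day 35, so no fold between them is given.

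Elavl4 (ENSMUSG00000028546, chr4:110203722-110351909) encodes HuD, an RNA-binding protein of postmitotic neurons. It stood at 26.4, 58.9 and 29.0 CPM in cone primed, 25.0, 20.3 and 19.6 CPM at day 5, 7.35, 6.29 and 2.32 CPM at day 12, and 0.427, 3.01 and 1.53 CPM at day 35 of cone cultures. Rod cultures went from 17.0, 14.4 and 28.2 CPM to 10.6, 10.3 and 11.9 CPM at day 5, 2.43, 8.80 and 2.16 CPM at day 12, and 0.170, 0.485 and 0.129 CPM at day 35. The lowest cone library of day 35 lay within the rod range. From day 0 to day 35 the log2 fold change was -4.52 ± 0.54 SE in cone and -6.24 ± 0.69 SE in rod cultures (edgeR adjusted p = 6.52e-08 and 2.01e-08).

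Rbpms (ENSMUSG00000031586, chr8:33782643-33929863) encodes an RNA-binding protein widely used as a pan-ganglion cell marker in the adult retina, and it did not follow the other 9 genes. It stood at 17.0, 13.0 and 26.2 CPM in untreated, 13.7, 37.8 and 15.6 CPM in cone primed and 11.4, 8.26 and 18.0 CPM in rod primed cells. In cone cultures it stood at 12.2, 5.23 and 8.78 CPM at day 5, 18.7, 10.5 and 14.7 CPM at day 12, 19.6, 20.5 and 15.8 CPM at day 21, and 32.7, 27.3 and 27.8 CPM at day 35. In rod cultures it stood at 14.3, 10.8 and 11.7 CPM at day 5, 27.4, 25.7 and 31.3 CPM at day 12, 48.0, 78.3 and 53.3 CPM at day 21, and 72.2, 92.3 and 62.2 CPM at day 35. Every rod library of days 12, 21 and 35 lay above every cone library of the same day. From day 0 to day 35 it rose 5.99-fold in rod cultures (log2 fold change 2.58 ± 0.35 SE, edgeR adjusted p = 5.35e-07), where 29.4% of all genes were called higher. In cone cultures the log2 fold change was 0.37 ± 0.33 SE (edgeR adjusted p = 0.349), and the cone libraries of day 35 overlapped those of day 0 because cone primed replicate 2 stood at 37.8 CPM. Without that library the cone log2 fold change was 0.997, so the smaller value depends on it.

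Markers of smooth muscle, pericytes and mesenchyme, cells in which Rbpms is also known to be expressed, rose over the same days. The summed level of 11 such genes was 1.76 to 18.4 CPM in the 9 libraries of day 0, 2254 to 4381 CPM in cone and 942 to 1947 CPM in rod cultures at day 35. By day 35, 10 of the 11 were called higher than at day 0 in each condition, against 31.1% of all genes in cone and 29.4% in rod cultures, among them Acta2, which encodes smooth muscle actin (0.159 to 1193 CPM in cone and 0.135 to 660 CPM in rod cultures by group means). The contrast between conditions ran the other way from Rbpms. At day 35, 4 of the 11 were called higher and 0 lower in cone than in rod cultures, against 7.77% and 4.51% of all genes. Lum and Col3a1, extracellular matrix genes, had the largest differences (38.3 ± 27.3 against 3.62 ± 1.02 CPM and 653 ± 467 against 101 ± 108 CPM, SD, n = 3). Des was at 0 in all 3 rod libraries of day 35. The part of such cells in the Rbpms result was not tested.

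Over the whole course, 9 of the 10 genes were called lower at day 35 than at day 0 in cone cultures and 9 in rod cultures, against 26.5% and 26.2% of all genes called lower. With genes at 0 counts set to their bound, the median log2 fold change of the 10 genes was -5.48 in cone and -4.94 in rod cultures, against 0.03 and 0.04 over all genes. Summed over the 9 genes without Rbpms, the level was 506 to 833 CPM in untreated, 440 to 1085 CPM in cone primed and 224 to 482 CPM in rod primed libraries, and at day 35 it was 20.1 to 37.3 CPM in cone and 8.24 to 9.36 CPM in rod libraries. No library was alone in deciding these calls of lower level. When each library was left out, the counts over all 10 genes were 9 to 10 in cone and 10 in rod cultures, Rbpms included. A count of 10 in cone cultures means that Rbpms, not called there with all libraries, was called as well.

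The steps between days showed when the fall was called. The first steps share their primed libraries with the comparisons at day 0. From day 0 to day 5, 6 genes were called lower in cone cultures (Pou4f1, Isl1, Rbpms, Nefm, Stmn2 and Gap43), against 10.2% of all genes, with a median log2 fold change of -1.55 over the 10 genes against 0.05 over all genes. Without cone primed replicate 2 the median was -0.86 and the count was 2, since Pou4f1 (adjusted p = 0.135), Isl1 (0.261), Rbpms (0.135) and Nefm (0.113) lost their calls in edgeR. Without cone day 5 replicate 2 it was 3, with Pou4f1 at 0.0557, Isl1 at 0.142 and Nefm at 0.0713, and the call of Isl1 was also lost without cone day 5 replicate 1 (0.0754) or replicate 3 (0.0743). In rod cultures 0 of the 10 were called by edgeR over these days, against 17.5% of all genes called, with all 10 log2 fold changes below 0 and a median of -0.74. Without rod primed replicate 3 the median was -0.31 and 6 of the 10 were below 0. With all libraries, 2 had an unadjusted p under 0.05, DESeq2 called 0, voom with quality weights called 1 and the fit of the compared libraries only called 2. The rod primed level from which they start had a mean below that of the cone primed cells in all 10 genes, and whether the steps of the conditions differ was tested only by the F test on the whole course.

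In cone cultures the step from day 5 to day 12 had the most calls. Here 8 of the 10 were called lower, all but Isl1 and Rbpms, against 18.6% of all genes called lower. The largest was Pou4f1, 25.2-fold lower (log2 fold change -4.65 ± 0.64 SE, edgeR adjusted p = 2.11e-06), followed by Pou4f2 (-4.17 ± 0.95 SE, adjusted p = 0.0011). The median over the 10 genes was -1.92, against 0.03 over all genes. In rod cultures 5 were called lower (Pou4f1, Nefl, Nefm, Stmn2 and Gap43), against 5.59% of all genes, and Rbpms was called higher (log2 fold change 1.21 ± 0.34 SE, edgeR adjusted p = 0.0125), against 12.7%. The rod median was -1.57, against 0.03 over all genes, and -2.65 without rod day 12 replicate 2. The call of Rbpms was lost without rod day 5 replicate 2 (adjusted p = 0.0634), and that of Nefl without rod day 12 replicate 1 (0.0853) or replicate 3 (0.0795). The fit of the compared libraries only called 4 in place of 6, with Nefl at 0.0747 and Stmn2 at 0.0845.

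From day 12 to day 21 the conditions had different counts of calls. In cone cultures edgeR called 0 of the 10, against 3.36% of all genes called, with 2 at an unadjusted p under 0.05 and 0 called by DESeq2 or voom with quality weights. In rod cultures 5 were called lower (Isl1, Nefl, Stmn2, Gap43 and Elavl4), against 6.29% of all genes, and Rbpms was called higher (1.09 ± 0.32 SE, edgeR adjusted p = 0.0298), against 4.88%. Without rod day 12 replicate 2, the library that was highest for 9 of the 10 genes, only Stmn2 kept its call. The edgeR adjusted p was then 0.111 for Isl1, 0.378 for Nefl, 0.113 for Gap43, 0.363 for Elavl4 and 0.139 for Rbpms. The log2 fold changes without it were -1.95 for Isl1, -1.43 for Nefl, -1.06 for Gap43 and -1.06 for Elavl4. Rbpms was lowest of its group in that library, and its log2 fold change without it was 1.02. The fit of the compared libraries only called 0. Without rod day 21 replicate 1 the count was 3, with Nefl at 0.0992, Gap43 at 0.0687 and Elavl4 at 0.0581. Without rod day 21 replicate 3 it was 3, with Nefl at 0.0593, Elavl4 at 0.113 and Rbpms at 0.0588. The call of Rbpms was also lost without rod day 12 replicate 1 (0.0565) or replicate 3 (0.0507), and those of Rbpms and Nefl without rod day 21 replicate 2 (0.123 and 0.0925).

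From day 21 to day 35 edgeR called 0 of the 10 in either condition, against 0.915% of all genes called in cone and 1.54% in rod cultures. An unadjusted p under 0.05 was reached by 2 in cone and 3 in rod cultures. DESeq2 called 0 in cone and 1 in rod cultures, and voom with quality weights called 0 in both. By then most of these genes had few reads, and Pou4f2 and Sncg were under the limit of detection on both days by their group means.

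**Figure D2:**
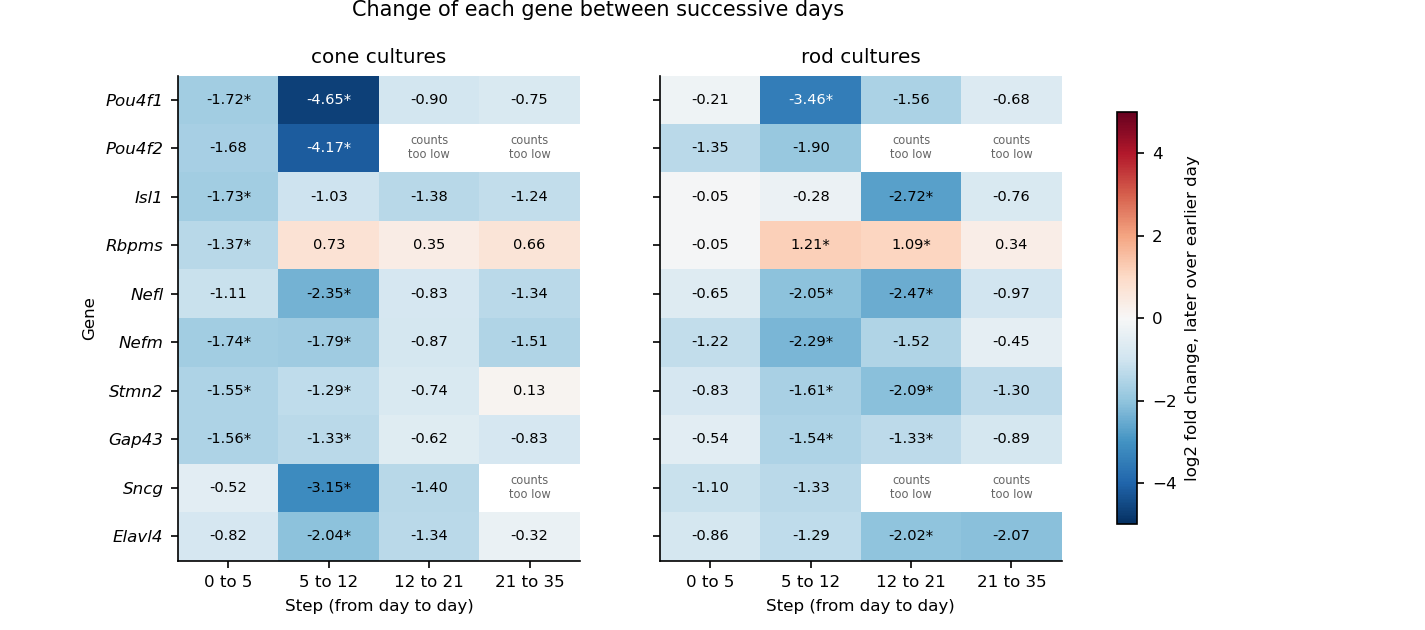
Log2 fold change of each gene between successive days in cone (left) and rod (right) cultures, with the fitted value in each cell. Blue is lower and red higher at the later day, a star marks an edgeR adjusted p under 0.05, and white cells had too few counts for a fitted fold. Calls lie in the first and middle steps and none in the last, and calls in red are those of Rbpms in rod cultures.

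The 10 genes were also compared between cone and rod cultures on each later day, beside the share of all genes called. At day 5 edgeR called 0 of the 10, against 9.28% of all genes, with 1 at an unadjusted p under 0.05, 0 called by DESeq2 and 1 by voom with quality weights. At day 12 edgeR called 0 as well, against 10.1% of all genes, with 2 at an unadjusted p under 0.05, 1 called by DESeq2 and 2 by voom with quality weights, and 1 called by edgeR without rod day 12 replicate 2. The percentages are those of the main edgeR fit, and the counts of the other fits have no background beside them. The median log2 fold change, cone over rod, was 0.61 at day 5 and -0.42 at day 12, against 0.01 and -0.01 over all genes. Without cone day 5 replicate 1 the day 5 median was 0.25. Without rod day 12 replicate 2 the day 12 median turned to 1.27, with 8 of the 10 genes higher in cone.

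At days 21 and 35 Stmn2 was higher in cone and Rbpms higher in rod cultures. For Stmn2 the difference was 4.0-fold at day 21 (log2 fold change 2.00 ± 0.40 SE, edgeR adjusted p = 0.00174) and 10.8-fold at day 35 (3.43 ± 0.45 SE, adjusted p = 9.41e-06). For Rbpms it was 3.23-fold towards rod at day 21 (-1.69 ± 0.33 SE, edgeR adjusted p = 0.00141) and 2.58-fold at day 35 (-1.37 ± 0.33 SE, adjusted p = 0.00541). The libraries of the conditions did not overlap for either gene on either day. When each library was left out, the day 35 difference stayed between 3.22 and 3.90 for Stmn2 and between -1.51 and -1.20 for Rbpms, with adjusted p of at most 0.000239 and 0.0296. At day 21 these were 1 of 10 genes called higher in cone, against 5.86% of all genes, and 1 called lower, against 3.14%.

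Elavl4 joined Stmn2 at day 35, 6.3-fold higher in cone than in rod cultures (log2 fold change 2.66 ± 0.82 SE, edgeR adjusted p = 0.0308), so that 2 of the 10 were called higher, against 7.77% of all genes, and 1 lower, against 4.51%. The Elavl4 groups overlapped, and its call was lost without cone day 35 replicate 2 (adjusted p = 0.225) or replicate 3 (0.0644) and without rod day 35 replicate 1 (0.114) or replicate 3 (0.132), with log2 fold changes between 1.91 and 2.70 in these fits. It was also lost with voom with quality weights (log2 fold change 2.36, adjusted p = 0.224), and Elavl4 did not pass the filter of the fit of the compared libraries only. Among the others, Nefl stood at 1.75 ± 0.96 SE and Nefm at 0.92 ± 0.75 SE (edgeR adjusted p = 0.27 and 0.498). Pou4f1 and Isl1 were at -0.18 ± 1.31 SE and -0.30 ± 0.86 SE, errors that leave a difference of either sign undetected at these counts.

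An F test across the 5 days took up whether the gap between cone and rod cells moved with time. It called 2 of the 10 genes, Stmn2 (edgeR adjusted p = 0.00408) and Rbpms (0.00593), against 9.22% of all genes. For Stmn2 the cone over rod log2 fold change was 1.06, 0.34, 0.66, 2.00 and 3.43 on the successive days, above 0 each time. For Rbpms it was 0.84, -0.48, -0.95, -1.69 and -1.37, so that its sign turned after day 0. The day 0 value was not called (edgeR adjusted p = 0.146) and was 0.22 without cone primed replicate 2. Pou4f1 had the next smallest adjusted p, at 0.171.

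**Figure D3:**
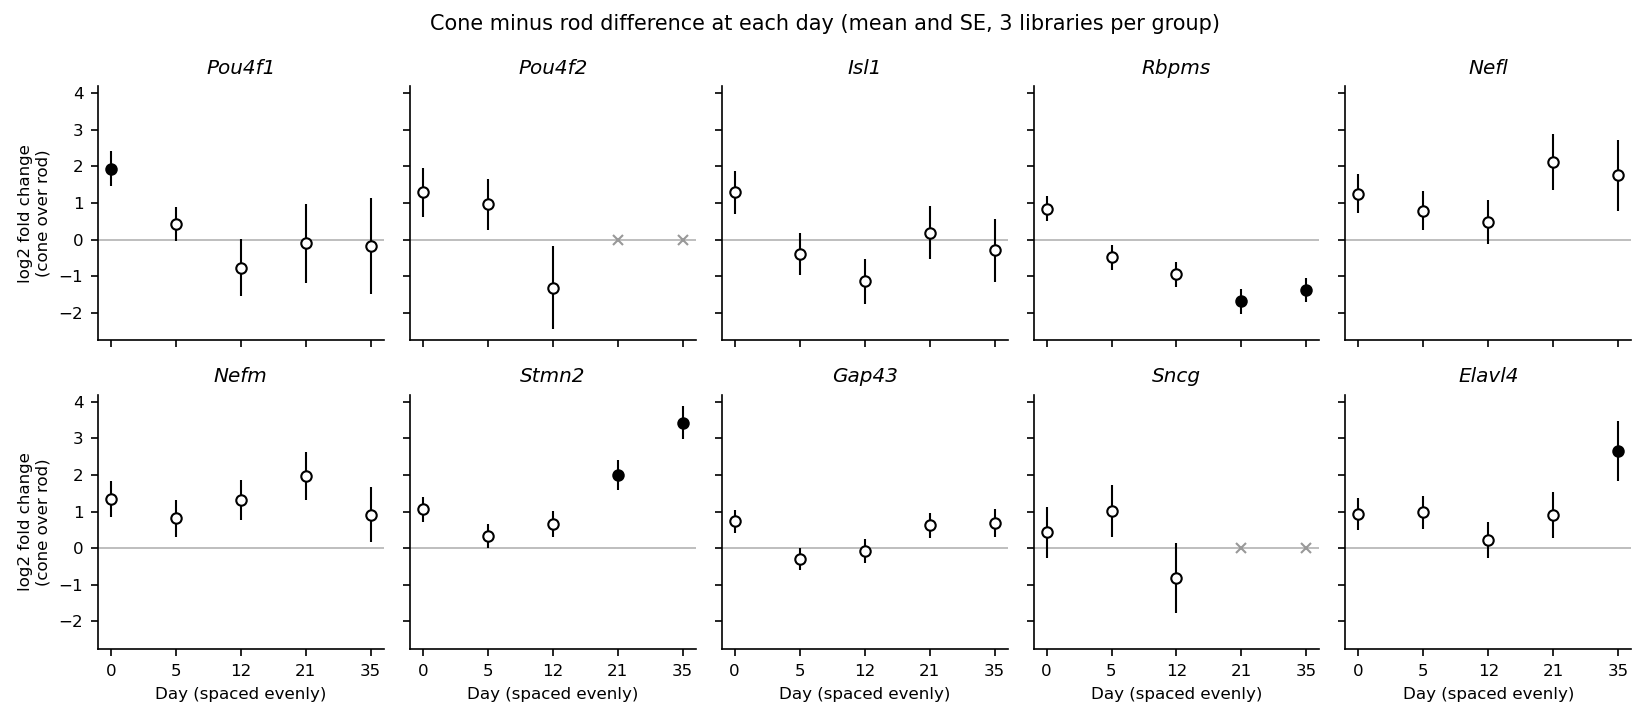
Cone over rod log2 fold change of each gene by day, with the standard error of the fit over 3 libraries per group. Filled points have an edgeR adjusted p under 0.05, and grey crosses on the 0 line mark days with too few counts for a fitted fold. Stmn2 climbs to 3.43 and Rbpms drops to -1.69, while Pou4f1 is called at day 0 only.

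The order of the genes turned over with the days. Per kilobase of exon, with the bases shared by Nefl and Nefm left out of both lengths, Gap43 was highest in untreated cells at 65.4 CPM per kb, followed by Nefm (35.7) and Nefl (34.8), which did not differ beyond their spread, and Stmn2 (26.6). The counts were used whole, so the places of Nefl and Nefm hold only if reads in the shared bases were not counted. Isl1 (12.2) and Pou4f1 (11.4) came next, again within their spread, then Elavl4 (5.59) and Sncg (5.11), and Pou4f2 (3.18) and Rbpms (2.86) were lowest. At day 35 of rod cultures Rbpms led at 11.5 CPM per kb, followed by Gap43 (2.32) and Isl1 (0.398), and Pou4f2 and Sncg were at 0. In cone cultures Rbpms (4.46), Gap43 (3.74) and Stmn2 (2.60) led, and Stmn2 stood at 0.233 CPM per kb in rod cultures.

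Genes whose group means followed those of each member most closely are given as a description over the 11 groups, with the root mean square difference of centred log2 CPM as the measure among 11909 genes. For Pou4f1 no gene was nearer than Pou4f2 (0.58), and for Nefl and Nefm none was nearer than the other (0.31), with the shared exonic bases given before. Pou4f2 was nearest to Tagln3 (0.45) and to Tubb3 (0.47), which encodes a neuronal tubulin. Nefl was followed by Dcx (0.33), a microtubule protein of migrating neurons, and Elavl3 (0.34). Isl1 was nearest to Sept3 (0.36), Hecw1 and Lhx4 (both 0.37). Stmn2 was nearest to Adcy2 and Dpysl4 (both 0.40), Gap43 to Bex2 and Slc29a4 (both 0.24), Sncg to Mycl (0.25) and Elavl4 to Dusp26 (0.27). Rbpms was nearest to Tsc22d1 (0.36) and Fam13a (0.37), and 11590 genes were nearer to it than the nearest of the other 9 members, Gap43 (2.38).

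Other genes of the ganglion cell programme were counted from lists, beside the same backgrounds. From day 0 to day 35 these were 31.1% of all genes called higher and 26.5% lower in cone cultures. They were 29.4% and 26.2% in rod cultures. Of 12 further transcription factor genes, 9 were called lower and 0 higher from day 0 to day 35 in cone cultures, with a median log2 fold change of -3.55 with bounds, and 4 were called lower and 1 higher in rod cultures, with a median of -0.80. Atoh7, the competence factor, went from means of 8.44 CPM in cone primed and 6.68 CPM in rod primed cells to 0 counts in all 6 libraries of day 35, at least 33.5-fold and 29.0-fold lower. Pou4f3, the third gene of the Pou4f family, went from 5.21 and 1.44 CPM to 0 counts, at least 20.7-fold and 6.23-fold lower. Already at day 0, Ebf1 and Isl2 were called lower in rod primed than in untreated cells (log2 fold changes -1.84 ± 0.41 SE and -1.26 ± 0.39 SE, edgeR adjusted p = 0.0041 and 0.0397). At day 21 Ebf1 was called higher in rod than in cone cultures (48.0 ± 16.9 against 16.2 ± 4.31 CPM, SD, n = 3).

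Of 14 further genes for the neuronal cytoskeleton and neuronal RNA-binding proteins, 13 were tested. From day 0 to day 35, 12 were called lower and 0 higher in each condition. The share of all genes called lower was 26.5% in cone and 26.2% in rod cultures. The median log2 fold changes were -4.51 in cone and -4.86 in rod cultures. Dcx went from 147 to 1.84 CPM in cone and from 83.7 to 0.743 CPM in rod cultures by group means. The heavy neurofilament gene Nefh was the only 1 of the 13 called between conditions at day 35, against 7.77% of all genes called higher. It was higher in cone (2.45 ± 2.49 against 0.259 ± 0.0744 CPM, SD, n = 3, log2 fold change 3.22 ± 0.80 SE, edgeR adjusted p = 0.008). At day 21, 4 of the 13 were called higher and 0 lower in cone cultures, against 5.86% and 3.14% of all genes. Nefh and Dcx had the largest differences (3.00 ± 0.72 SE and 2.70 ± 0.61 SE, edgeR adjusted p = 0.00794 and 0.00495). Of 12 axon guidance and adhesion genes, 7 were called lower in each condition from day 0 to day 35. Beside these, 3 in cone and 4 in rod cultures were called higher, against 31.1% and 29.4% of all genes. Dcc, the netrin receptor that steers ganglion cell axons into the optic nerve, was lowest, at 85.8 to 2.28 CPM in cone and 53.7 to 1.13 CPM in rod cultures.

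Genes of mature ganglion cells were called in both directions. Of 10, 4 were called higher and 6 lower from day 0 to day 35 in cone cultures, against 31.1% and 26.5% of all genes. In rod cultures 2 were called higher and 5 lower, against 29.4% and 26.2% of all genes. The median log2 fold changes were -1.48 in cone and -1.90 in rod cultures. Slc17a6, which encodes the glutamate transporter VGLUT2 of ganglion cells, went from 5.29 to 0.143 CPM in cone cultures. Spp1, which encodes osteopontin and is also made by macrophages and glia, rose from 0.227 to 597 CPM in cone and from 2.03 to 216 CPM in rod cultures. At day 35, 3 of the 10 were called higher and 0 lower in cone than in rod cultures, against 7.77% and 4.51% of all genes. The larger 2 were Thy1, a surface protein of ganglion cells and also of fibroblasts (66.8 ± 33.2 against 3.58 ± 1.09 CPM, SD, n = 3), and the enkephalin gene Penk (13.5 ± 3.69 against 0.977 ± 0.216 CPM).

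Markers of other cells moved between the conditions on the same days as Stmn2 and Elavl4. Of 11 amacrine and horizontal cell genes tested, 4 were called higher in cone at day 35 (7.77% of all genes) and 1 lower (4.51%). The largest were the cholinergic amacrine genes Slc18a3 (ratio 43.8, exact 95% counting interval 11.7 to 368) and Chat (5.18 ± 2.53 against 0.156 ± 0.172 CPM, SD, n = 3, log2 fold change 4.99 ± 0.80 SE, edgeR adjusted p = 0.000109), and Slc5a7 and Lhx1 were at 0 in the rod libraries. The summed level of the 12 genes of that list was 222 to 281 CPM in cone and 182 to 218 CPM in rod cultures. Of 5 microglia genes tested, 5 were called higher in cone at day 35, against 7.77% of all genes. The summed level over that list was 13.9 to 75.8 CPM in cone against 0.765 to 1.46 CPM in rod cultures. The part of these other cells in the Stmn2 and Elavl4 results was not tested.

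**Figure D4:**
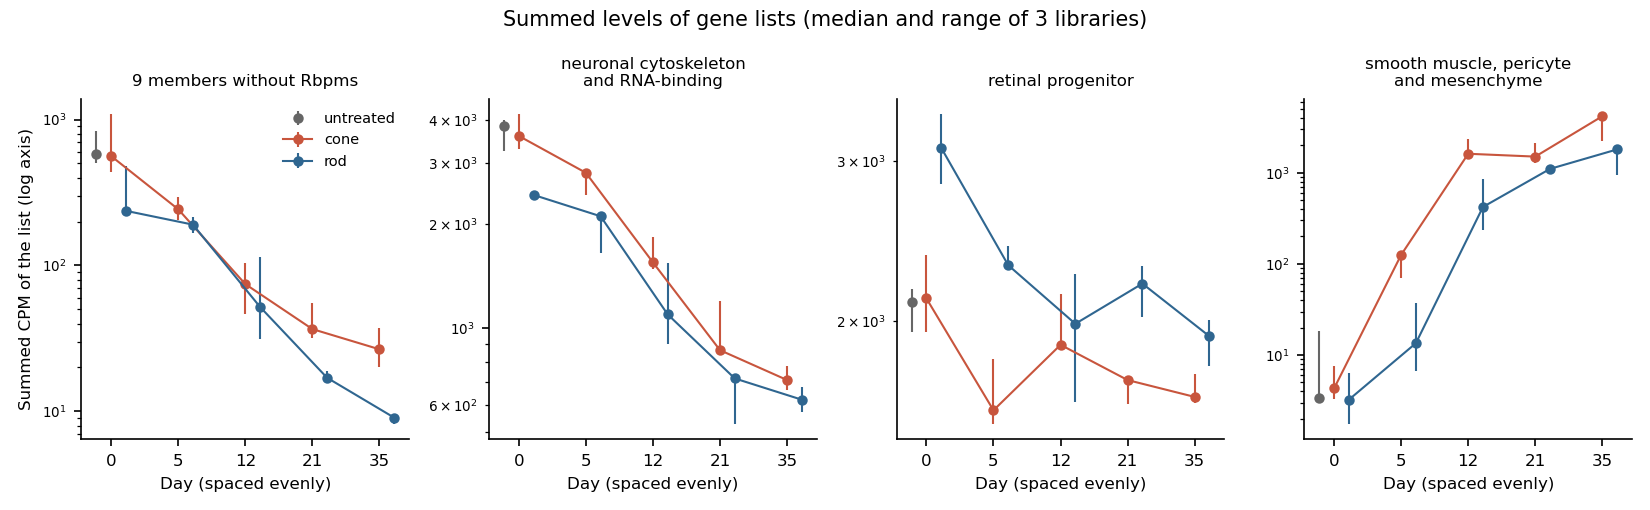
Summed CPM of 4 gene lists (log axis) by day, as the median and range of 3 libraries per group. The 9 ganglion cell genes without Rbpms fall to 8.24 to 9.36 CPM in rod and 20.1 to 37.3 CPM in cone libraries at day 35, smooth muscle and mesenchyme genes rise to 942 CPM or more, and progenitor genes keep within 1543 to 3378 CPM.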

How the data were processed

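RNA was sequenced from 33 libraries in 11 groups. Per the submitters' processing notes, the tools included HISAT2, StringTie and HTSeq and the build GRCm38, with their settings not given in the sources used here. The deposited tables hold raw read counts per gene, and per the file headers the authors also gave TPM, FPKM and coverage (signal) per gene. Each library held 7511837 to 19166442 counts in genes, and lines that name no gene, which left 26.9% to 34.9% of counted reads in genes, were left out. Limits from a count of 0 and counting intervals (95%) cover counting error only.

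Counts were tested with edgeR 4.0.16 (R 4.3.3, TMM scaling, quasi-likelihood test over all 11 groups, genes kept at a minimum count of 10 in a group) in 17 comparisons, with Benjamini-Hochberg adjustment over 18150 genes and a threshold of 0.05. Whether the gap between cone and rod cells moved with day was tested by an F test (4 degrees of freedom). The alternatives were RLE scaling, no filter, DESeq2 1.42.0, voom with quality weights (limma 3.58.1), the compared libraries only, a replicate block, limma on log2(TPM + 1), and leaving out each library. All percentages of genes called are those of the main edgeR fit. Scripts were tested on simulated data. With known changes between cone and rod cells at day 35, 45.4% of the 2-fold and 68.7% of the 4-fold changes were called. The simulated level of each gene was its mean over all 33 libraries. The 10 genes other than Rbpms lay below their own such mean at day 35, so these rates do not describe them there. A gene that was not called may therefore still differ. TPM served only as an alternative: 27.2% of the deposited TPM values of the 10123 genes with a mean of at least 100 counts were 0, and Sncg was listed at 0 TPM in all 33 libraries. FPKM and coverage were not tested.

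The 10 genes, the 13 other lists and the tests were chosen with earlier results of these data known. Beyond the 10, at most the 2 called genes of a list with the largest change are named per comparison, beside markers at 0 and, for each gene, up to 3 genes most alike in pattern. Replicate numbers were checked for pairing: over 165 same-numbered pairs the median correlation of deviations was 0.0165, with 48 pairs over 0.1.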

Additional observations from a re-analysis of the deposited data

Results flagged for a closer look

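The gap between cone and rod cells moved with day for Stmn2 (edgeR quasi-likelihood F test, adjusted p = 0.00408) and for Rbpms (adjusted p = 0.00593), a difference between conditions that was itself tested. For Stmn2 the cone over rod log2 fold change went from 1.06 at day 0 to 3.43 at day 35. For Rbpms it went from 0.84 to -1.37, and the day 0 value was not called (edgeR adjusted p = 0.146) and was 0.22 without cone primed replicate 2. Both calls held when each library was left out in turn, with 2 of the 10 genes called in every such fit.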

How the results depend on the processing

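Over 54 gene and comparison pairs that the text rests on, RLE scaling, no filter, DESeq2 and the replicate block each kept the direction and the call of all 54, voom with quality weights of 51 and the compared libraries only of 45, with 8 calls lost and Elavl4 between conditions at day 35 not tested because it did not pass that fit's filter. Leaving out 1 library kept 337 and lost 35 calls. The numbers of called genes were as follows, without the share of all genes called in each fit. For rod primed against untreated cells, 1 gene became 2 with no filter, 8 with voom, 3 with the compared libraries only and 0 with TPM, and 2 with the replicate block, which moved no other count by over 1.5 times. Replicate numbers were not taken as pairs, since the labels do not say that they are. The median correlation was 0.0165 for same-numbered and -0.0114 for other pairs. With 48 of 165 same-numbered pairs over 0.1 and 19 of 33 libraries closest to their own number, the data hint at sharing that the main fit leaves out. For cone against rod cells, 1 at day 0 became 2 with no filter, 2 with DESeq2, 7 with voom, 2 with the compared libraries only and 0 with TPM. At day 5, 0 became 3 with the compared libraries only and 1 with voom, and at day 12, 0 became 1 with DESeq2 and 2 with voom. At day 21, 2 became 4 with DESeq2 and 0 with TPM, and at day 35, 3 became 0 with TPM. In cone cultures TPM gave 1 in place of 6 from day 0 to day 5, 4 in place of 8 to day 12 and 3 in place of 9 from day 0 to day 35. In rod cultures, 0 from day 0 to day 5 became 1 with voom, 1 with TPM and 2 with the compared libraries only. From day 5 to day 12, 6 became 0 with TPM, and from day 12 to day 21, 6 became 0 with TPM and 0 with the compared libraries only. From day 21 to day 35, 0 became 1 with DESeq2, and from day 0 to day 35, 10 became 2 with TPM. The F test gave 0 in place of 2 with TPM.

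With 1 library left out, the counts ranged from 0 to 2 for rod primed against untreated and for cone against rod at day 0, 0 to 1 at day 12, 2 to 3 at days 21 and 35, 2 to 6 for cone from day 0 to day 5, 8 to 10 to day 12 and 9 to 10 from day 0 to day 35, and 5 to 9 for rod from day 5 to day 12 and 1 to 7 to day 21. TPM kept 8 of the 54, lost 41 and reversed 5. For Rbpms the reversed log2 fold changes were 1.36 for cone from day 0 to day 5, -0.62 for rod from day 5 to day 12, -0.052 from day 12 to day 21 and -0.20 for rod from day 0 to day 35, and for Elavl4 0.14 for rod from day 12 to day 21. The cause was not tested. Depth limits Pou4f2, Sncg, Pou4f1 and Elavl4 at day 35, where 3 counts are on average 0.252 CPM in cone and 0.23 CPM in rod libraries.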

Other observations

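Marker genes of other cell types moved too, beside 31.1% of all genes called higher and 26.5% lower from day 0 to day 35 in cone cultures and 29.4% and 26.2% in rod cultures. Of 7 photoreceptor genes, 6 were called lower and 0 higher from day 0 to day 35 in each condition, led by Prdm1 and Neurod1, and 3 were called higher in cone than in rod cultures at day 21, against 5.86% of all genes. Of 8 Muller glia and astrocyte genes, 7 were called higher and 0 lower in cone cultures and 6 higher and 1 lower in rod cultures, led by Gfap, the filament gene of reactive glia, and Cd44. The summed level of the glial genes was 270 to 711 CPM at day 0, 2098 to 2658 CPM in cone and 1483 to 3406 CPM in rod cultures at day 35.

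Beside the same backgrounds, of 8 bipolar cell genes, 3 were called higher and 2 lower in each condition from day 0 to day 35. Of 6 endothelium genes, 3 were tested, with 1 called higher and 1 lower in cone and 0 higher and 1 lower in rod cultures. Of 6 pigment epithelium genes, 3 were tested, with 1 higher and 0 lower in cone and 1 higher and 1 lower in rod cultures. Of 12 retinal progenitor genes, 4 were called higher and 6 lower in cone and 3 higher and 4 lower in rod cultures.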
